A study of Homo sapiens with 18 samples.

Results

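The cytosolic ribosomal protein genes were followed in Cal27 cells, a tongue squamous carcinoma cell line, across 3 media and with or without a neuropeptide. Members were the protein-coding genes whose symbol is RPL or RPS with a number, together with RPLP0, RPLP1, RPLP2 and RPSA, without pseudogenes, kinases of the RPS6K type, RPS19BP1, RPL7L1 and the RPS4Y genes. The rule found 84 genes among the 60683 rows of the count table, of which 46 encode proteins of the large subunit, 31 encode proteins of the small subunit and 7 are paralogs of one of these (RPS27L, RPL22L1, RPL39L, RPL3L, RPL10L, RPL26L1 and RPL36AL). RPL22L1 and RPL26L1, whose symbols end in an L and a further digit, were taken in by a reading of the rule, which names only RPL7L1 of that form as left out. A filter on low counts kept 83 of them, and RPL10L, a retrogene copy known from testis, averaged 0.444 counts per library and was left untested.

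The study held 18 libraries of total RNA, 3 in each of 6 groups, from cells treated for 24 hours. The titles name the treatments TG and capTG, which the design text defines as the peptide below and as control medium, while the growth protocol mentions only different CM, an abbreviation it does not spell out. The names CGRP and control follow the design text. Glucose-deprived medium was used with rhCGRP at 10 nM, the recombinant human form of a peptide that sensory nerves release (calcitonin gene-related peptide, CGRP), or as control medium. 2-DG (2-deoxyglucose, which blocks glycolysis) was added at 5 mM to DMEM rich in glucose, again with the peptide at that dose or as control medium. High-glucose DMEM alone was likewise used with the peptide or with control medium, and replicates were described as independent biological repeats. All groups share a single cell line, so the values describe Cal27 cells only. Squamous epithelial markers were present throughout, with KRT5 between 645 and 2400 CPM (read counts scaled to a common library size) and TP63 between 334 and 603 CPM. The summed level of 8 such markers was lower in deprived libraries, at 3470 to 3820 CPM, against 4560 to 5210 CPM in 2-DG and high-glucose libraries. Among markers of other cell types, the summed level of 4 endothelial markers was 1.79 to 3.87 CPM in deprived libraries, and 21.3 to 43.9 CPM in 2-DG and high-glucose libraries, most of it CDH5, while PECAM1 and KDR reached at most 0.257 and 0.0644 CPM. The sum of 6 fibroblast markers was 10.6 to 16 CPM in deprived libraries, and 17.9 to 28.6 CPM in the others, most of it COL1A1, with DCN at 0 in 12 libraries and THY1 at 0 in 13. The sum of 6 neuron markers was 13.6 to 14.4, 22.5 to 26.4 and 21.6 to 23.1 CPM with CGRP in deprived, 2-DG and high-glucose medium, against 9.21 to 10.1, 14.7 to 16.4 and 12.4 to 12.9 CPM in the control media. The part of these markers in the results was not tested.

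Ribosomal proteins bind ribosomal RNA in the nucleolus and form, with it, the subunits that make all cytosolic protein. Their mRNAs are among the most abundant of a growing cell. Most begin with a cytosine followed by a run of pyrimidines, the 5′ terminal oligopyrimidine (TOP) motif, through which the mTORC1 kinase and the RNA-binding protein LARP1 control their translation and storage when nutrients run short. Free RPL5 and RPL11 bind MDM2 when subunit assembly fails.

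The starts of the transcripts are shown because the TOP motif is the sequence feature by which this family is best known. Each line gives 10 bases before and 20 bases from the RefSeq start (GRCh38.p14), 5′ to 3′, with a run of C and at least 4 further pyrimidines from the start base in capitals.
RPL22L1: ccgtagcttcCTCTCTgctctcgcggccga
RPL28: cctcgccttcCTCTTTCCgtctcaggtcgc
RPL13A: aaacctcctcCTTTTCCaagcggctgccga
RPS6: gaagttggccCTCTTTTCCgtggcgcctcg
RPS3: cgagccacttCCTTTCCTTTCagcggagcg
RPLP0: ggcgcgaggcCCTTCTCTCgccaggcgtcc
RPS27: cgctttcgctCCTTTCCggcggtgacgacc
RPS27L: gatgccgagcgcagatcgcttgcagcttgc
RPL10A: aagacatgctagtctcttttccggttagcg
EEF1A1: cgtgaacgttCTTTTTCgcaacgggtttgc
These windows cover the promoter edge and the first bases of exon 1. RPL22L1 lies at chr3:170870176-170870205 on the minus strand, RPL28 at chr19:55385922-55385951 on the plus strand and RPL13A at chr19:49487598-49487627 on the plus strand. RPS6 lies at chr9:19380217-19380246 (minus), RPS3 at chr11:75399508-75399537 (plus) and RPLP0 at chr12:120201092-120201121 (minus). RPS27 lies at chr1:153990752-153990781 (plus), its paralog RPS27L at chr15:63157458-63157487 (minus), RPL10A at chr6:35468391-35468420 (plus) and EEF1A1 at chr6:73521013-73521042 (minus). RPS27 has the run and RPS27L has none in this window, and in RPL10A a pyrimidine stretch stands a few bases downstream of the listed start.

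Of the 84 members, 67 had an entry in the RefSeq promoter table, and 47 of these (70.1%) carried the run at the listed start, against 1404 of all 27305 symbols (5.14%). Among genes that are not paralogs it stood in 46 of 62, and among the 5 paralogs with an entry only RPL22L1 had it. The search read the sense strand from the start base only. A match is a description of these letters and not a measured start.

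The libraries held between 28038260 and 32661768 counts, and CPM values are given after TMM scaling. In the deprived groups the members took 6.37%, 9.81% and 6.33% of all counts with CGRP, and 6.74%, 6.67% and 6.67% without it. In 2-DG medium they took 5.65%, 5.18% and 5.31% with CGRP, and 5.34%, 7.42% and 5.61% without it. In high glucose they took 5.21%, 5.55% and 5.48% with CGRP, and 5.39%, 5.30% and 5.41% without it. Every deprived library thus lay above every high-glucose library, and the second replicates of deprived CGRP and of 2-DG control lay far above their group mates.

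**Figure D1:**
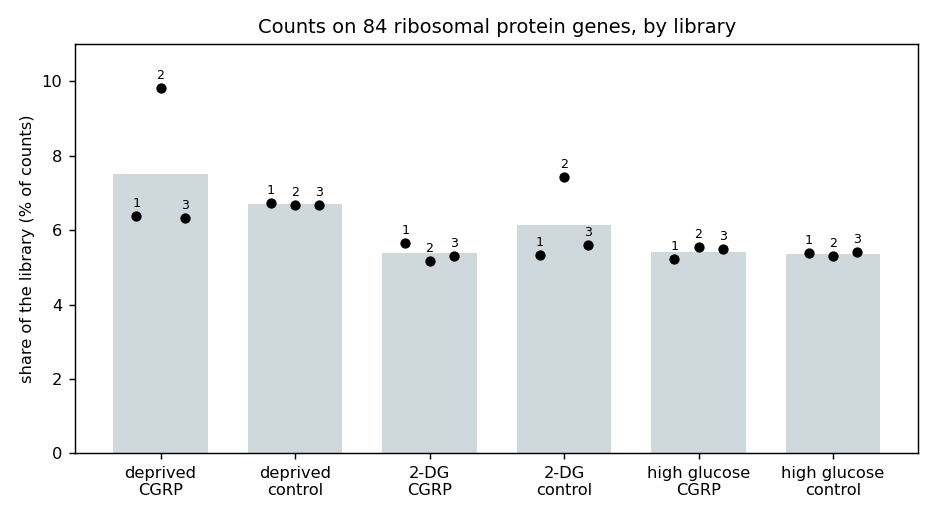
Share of each library's counts (%) on the 84 ribosomal protein genes. Bars are group means and points are libraries, numbered by replicate. The deprived libraries lie between 6.33% and 9.81% and the high-glucose libraries between 5.21% and 5.55%, and replicate 2 stands above its mates in deprived CGRP (9.81%) and in 2-DG control (7.42%).

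These 2 libraries stood apart in more than the ribosomal genes, and the members' counts in each comparison below are given with and without them. They were named with results of these data known. Both are high in most members, so leaving them out lowers the members' values in their groups by construction. Counts without them are therefore no independent test. Deprived CGRP replicate 2 had 82 of 83 tested members above the mean of its mates, with a median log2 difference of 0.77. 2-DG control replicate 2 had 81 of 83 above its mates, with a median of 0.49. Among other genes the same libraries were higher for short transcripts and lower for long ones. Each gene's length was that of a single annotated transcript, with one tagged as principal preferred, then one tagged as basic, then the longest. In deprived CGRP replicate 2 the median log2 difference was 0.39 for genes of over 600 and up to 1000 bases and -0.33 for those over 4000 bases. In 2-DG control replicate 2 it was 0.28 and -0.22. The tested members have a median transcript length of 1041 bases, against 2698 bases over the genes tested. The part of transcript length in the members' high values there was not tested. The highest of all 18 values fell in one or the other of these 2 libraries for 80 of 83 members. Replicates of a group were also compared by chi-square per degree of freedom, which sets their difference against counting noise. It was 35.9 to 89.7 for pairs with either of these libraries and 1.43 to 5.6 for the others. Whether so narrow a spread measures that between cultures was not tested, and small SE and adjusted p without these libraries need care.

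The genes spanned a wide range of levels. Per kilobase of the annotated transcript chosen as above, RPS2, a small-subunit protein near the mRNA entry channel, was highest in high-glucose control cells at 3030 CPM per kilobase. RPL35 at 2020 and RPS18 at 1940 followed. RPS27L and RPL22L1 stood at 5.05 and 17.1 CPM per kilobase, and RPL3L, the striated-muscle form of RPL3, at 0.121. Low values of core members need care, because reads of a ribosomal gene also match its processed pseudogenes. RPS28 averaged 159.3 counts against 8801 on rows named as its pseudogenes (98.2% of the sum), RPL9 had 90.1%, RPL39 88.6% and RPS10 83.3% of their sums on such rows, and the counter's treatment of multiply mapped reads is not given in the sources used here.

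Under glucose deprivation without CGRP, ribosomal protein mRNAs of both subunits rose far more often than they fell. Of 83 tested members, 39 rose and 2 fell (edgeR quasi-likelihood test, Benjamini-Hochberg adjusted p under 0.05 over 18159 genes), where 31% of all genes tested rose and 29.6% fell. The median log2 fold change was 0.39 over the members and 0.02 over all genes. In 74 members all 3 deprived libraries lay above all 3 high-glucose libraries, in 5 they lay below, and in 4 the groups overlapped, against 39.5% of all genes that lay above and 36.4% that lay below. CPM are shares of a library, so more of these mRNAs per cell cannot be told apart from less of other RNA. Scaled by library totals alone, the median of all genes shifted to -0.13 and that of the members to 0.23. With that scaling 21 of 83 members rose and 3 fell, where 4161 of 18159 genes rose.

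Neither of the 2 libraries that stand apart belongs to these groups, but both enter the shared estimate of spread. Without them, 72 members rose and 6 fell, where 36.1% of all genes rose and 36.3% fell, and the median was 0.36. A fit of the 6 libraries compared gave 73 that rose and 6 that fell, where 6760 of 18159 genes rose. Leaving out 1 of the 6 libraries lowered the number called to between 22 (without deprived control replicate 1) and 27 (without high-glucose control replicate 2 or 3), with medians of 0.35 to 0.39. In these fits 21 to 25 members rose and 4868 to 5131 of all genes did, against 39 and 5633 with all 18 libraries.

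RPL10, a late-joining protein near the peptidyl transferase centre, had 1619, 1612 and 1633 CPM in deprived control cells, against 906, 919 and 931 CPM in high-glucose control cells. The 2 groups were far apart and narrow, and the log2 fold change was 0.82 ± 0.13 (SE, adjusted p = 5.4e-05, edgeR). Of the exon bases of RPL10, 52.7% overlap an annotated gene on the other strand, and whether counting used strand is not given in the sources used here. RPL10A, a protein of the L1 stalk, had 1286, 1279 and 1282 CPM in deprived control cells, against 723, 731 and 740 CPM in high-glucose control cells (log2 0.81 ± 0.15, adjusted p = 0.00019). RPL28 had 641, 626 and 621 CPM in deprived control cells, against 365, 368 and 375 CPM in high-glucose control cells (log2 0.77 ± 0.17, adjusted p = 0.00083). The groups did not overlap in any of these 3 genes, and all 3 also rose without the 2 libraries that stand apart, at log2 0.79, 0.78 and 0.74.

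RPL13A, which in human monocytic cells also acts outside the ribosome as a translational silencer, had 1683, 1714 and 1632 CPM in deprived control cells, against 994, 978 and 1023 CPM in high-glucose control cells, a log2 change of 0.75 ± 0.16 (adjusted p = 0.00081). RPL3, whose loop reaches the peptidyl transferase centre, had 2398, 2407 and 2385 CPM in deprived control cells, against 1409, 1416 and 1425 CPM in high-glucose control cells, a log2 change of 0.76 ± 0.10 (adjusted p = 7.1e-06). The stalk base RPLP0 rose by 0.52 ± 0.12 on the log2 scale (adjusted p = 0.0014), while its acidic partners RPLP1 and RPLP2, which recruit elongation factors, had 0.49 ± 0.22 and 0.36 ± 0.22 and did not pass (adjusted p = 0.059 and 0.17). RPL5 of the 5S particle rose by 0.48 ± 0.15 (adjusted p = 0.011), and its partner RPL11 had 0.41 ± 0.19 (adjusted p = 0.079). RPLP1, RPLP2 and RPL11 also passed without the 2 libraries that stand apart, at log2 0.47, 0.33 and 0.38.

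In the small subunit the median was 0.39 over 31 genes against 0.40 over the 46 large-subunit genes, and 14 rose and 1 fell. RPS6, the substrate of the S6 kinases downstream of mTORC1, had 1688, 1668 and 1652 CPM in deprived control cells, against 1189, 1174 and 1121 CPM in high-glucose control cells (log2 0.52 ± 0.14, adjusted p = 0.0052). RPSA, the laminin receptor precursor, rose by 0.52 ± 0.17 and RPS4X by 0.47 ± 0.15 (adjusted p = 0.014 for both). RPS27, a zinc-finger protein, had 353, 357 and 342 CPM in deprived control cells, against 239, 237 and 234 CPM in high-glucose control cells (log2 0.57 ± 0.18, adjusted p = 0.011). RPS3, RPS14, RPS19 and RPS27A had log2 values of 0.37, 0.32, 0.39 and 0.31 and did not pass with all 18 libraries. All 4 passed without the 2 libraries that stand apart, at 0.34, 0.29, 0.36 and 0.28.

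Summed counts in deprived libraries were shifted slightly toward the large subunit. The ratio of counts on large-subunit genes to counts on small-subunit genes was 1.36, 1.36 and 1.37 in deprived control libraries, against 1.28, 1.30 and 1.30 in high-glucose control libraries. With CGRP it was 1.39, 1.34 and 1.38 in deprived libraries, against 1.28, 1.28 and 1.27 in high-glucose libraries. In 2-DG libraries it was 1.30, 1.32 and 1.32 with CGRP, and 1.35, 1.29 and 1.32 in control medium. The deprived and high-glucose libraries did not overlap, but the 2-DG libraries overlapped both. No test was run on this ratio.

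**Figure D2:**
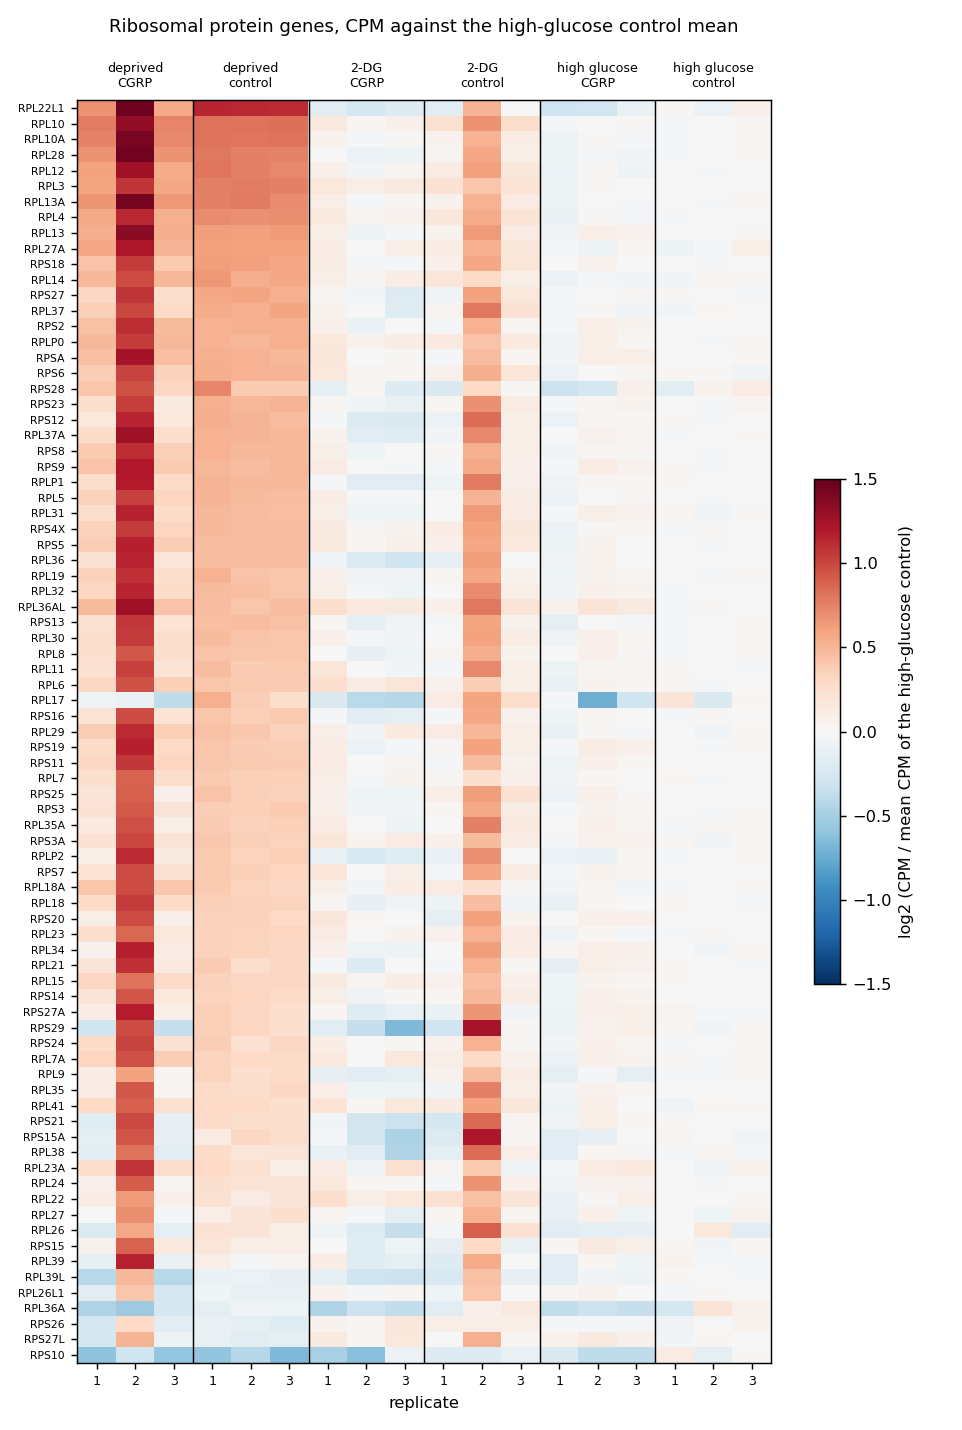
Colour gives log2 of each library's CPM over the mean of the 3 high-glucose control libraries, for 81 ribosomal protein genes (rows, ordered by their log2 fold change under deprivation without CGRP; the very low RPL3L and RPL10L and 1 other member are not drawn) in 18 libraries (columns, numbered by replicate; scale from -1.5 to 1.5). Nearly all rows are red in the deprived control libraries, and replicate 2 is the darkest column of deprived CGRP and of 2-DG control.

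RPL22L1, the paralog of RPL22 that binds RNA and regulates splicing outside the ribosome, had 82.2, 81.5 and 80.8 CPM in deprived control cells, against 37.9, 35.0 and 39.2 CPM in high-glucose control cells. Its log2 fold change of 1.13 ± 0.19 (adjusted p = 8.4e-05) was the largest rise among the tested members. RPL22 itself had 107, 99.5 and 104 CPM in deprived control cells, against 90.7, 90.7 and 92.1 CPM in high-glucose control cells (log2 0.19 ± 0.12, adjusted p = 0.18). The 2 groups of RPL22 did not overlap, but the change did not pass in the fit of all libraries, and it did pass without the 2 that stand apart (log2 0.16, adjusted p = 0.0013).

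RPS27L, a p53-inducible paralog of RPS27, averaged 29.6 ± 0.53 CPM in deprived control cells and 32.5 ± 0.725 CPM in high-glucose control cells (SD, n = 3 each), with no overlap. Its log2 value was -0.14 ± 0.16 (adjusted p = 0.47), and -0.16 ± 0.05 (adjusted p = 0.0027) without the 2 libraries that stand apart, when RPS27 had 0.54. RPL39L, best known from testis, RPL26L1 and RPL36AL had log2 values of -0.10, -0.10 and 0.45 with adjusted p of 0.67, 0.57 and 0.050, and without the 2 libraries they had -0.13, -0.12 and 0.42 and passed (adjusted p = 0.0087, 0.0078 and 7.2e-14). Their counterparts RPL39, RPL26 and RPL36A had 0.04, 0.16 and -0.10, or 0.01, 0.13 and -0.13 without the 2, and none of the 3 passed in either fit. Of the 6 tested paralogs, 1 rose and 1 fell with all libraries, and 2 rose and 4 fell without the 2. RPL3L was counted 0, 4 and 1 times in deprived control libraries, against 15, 7 and 2 times in high-glucose control libraries. It was called lower (adjusted p = 0.019), yet the groups overlapped and so few counts give no reliable fold.

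RPS10 was the other member called lower, with 1.32, 1.48 and 1.26 CPM in deprived control cells, against 2.17, 1.81 and 2.02 CPM in high-glucose control cells (log2 -0.56 ± 0.15, adjusted p = 0.0032). When counts on pseudogene rows were added to each member, RPS10 turned to a rise of 1.14 (adjusted p = 6.8e-05). The direction for RPS10 therefore depends on whether counts on rows named as its pseudogenes are included, and the origin of those counts was not tested. The exons of RPS10 also share 39.4% of their bases with other genes on the same strand. In that summed fit 40 members rose and 1 fell, where 5598 of all genes rose, and the median stayed at 0.39.

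Deprivation under CGRP was a contrast of 6 other libraries. With all libraries 61 members rose and 1 fell, where 31.9% of all genes tested rose and 28.5% fell, and the median log2 change was 0.55 against 0.04 over all genes. All 39 members that rose without CGRP also rose under it, and 22 more passed in this contrast but not in the other. The interaction test described below called 0 members different between the contrasts with all libraries. Without the 2 that stand apart, 58 members rose under CGRP and 72 without it. That fit holds 2 deprived CGRP and 3 deprived control libraries, so these numbers of calls are not directly comparable. Across the 83 members the 2 sets of fold changes had a Pearson correlation of 0.95 and a Spearman correlation of 0.89, as a description over genes that share libraries. Groups did not overlap in 62 members that were higher and 1 that was lower, against 31.5% and 29.6% of all genes.

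The size of this contrast depended on deprived CGRP replicate 2. RPL10A had 1227, 1967 and 1203 CPM in deprived CGRP cells, against 696, 739 and 720 CPM in high-glucose CGRP cells, where the second value is that library. Its log2 change was 1.03 ± 0.15 (adjusted p = 1.8e-05), and 0.73 ± 0.03 (adjusted p = 5.1e-24) without the 2 libraries that stand apart. RPL22L1 had 59.4, 103 and 55.4 CPM in deprived CGRP cells, against 30.3, 30.6 and 34.8 CPM in high-glucose CGRP cells (log2 1.19 ± 0.19, adjusted p = 5.2e-05, and 0.82 ± 0.05 without the 2). RPL28 had 590, 1010 and 588 CPM in deprived CGRP cells, against 349, 364 and 358 CPM in high-glucose CGRP cells (log2 1.03 ± 0.17, adjusted p = 5.7e-05, and 0.70 without the 2). RPL13A averaged 1950 ± 654 CPM in deprived CGRP cells and 977 ± 26.1 CPM in high-glucose CGRP cells (SD, n = 3 each), a log2 change of 1.00 ± 0.16 (adjusted p = 5.9e-05, and 0.66 without the 2).

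With both outlying libraries left out, 58 members rose and 6 fell under CGRP, where 35% of all genes rose and 34.9% fell, and the median was 0.20. Leaving out deprived CGRP replicate 2 alone left 36 called, with the same median. In that fit 31 members rose and 5 fell, where 11781 of all genes were called and 5874 of these rose. A fit of the 6 libraries compared called 29 higher and 1 lower, where 4334 of 18159 genes were higher. RPL39L and RPL26L1, at 0.05 and 0.00 with all libraries, were lower under deprivation without that library, at -0.34 and -0.26 (adjusted p = 2.2e-07 and 4.4e-06 with both left out). RPS29, a small zinc-finger protein, had 158, 383 and 154 CPM in deprived CGRP cells, against 185, 204 and 208 CPM in high-glucose CGRP cells. Its log2 value was 0.22 ± 0.34 with all libraries and -0.38 ± 0.13 (adjusted p = 0.023) without the 2, and RPS29 is named here after its values were seen.

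**Figure D3:**
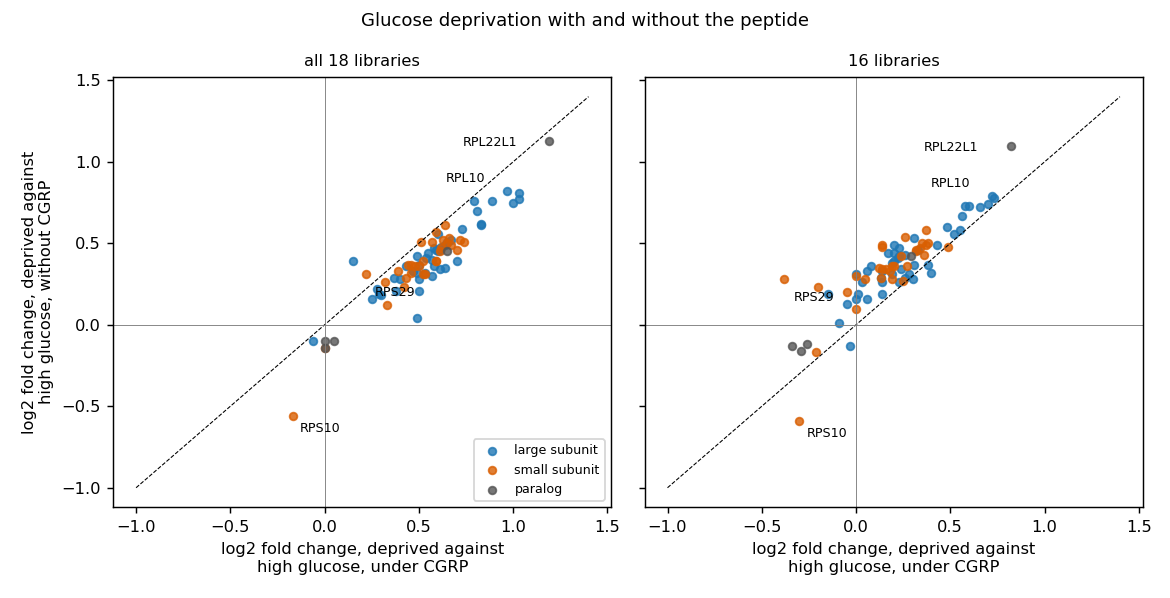
Log2 fold change of deprived against high-glucose cells under CGRP (horizontal) and without CGRP (vertical) for 82 ribosomal protein genes (RPL3L not drawn), with all 18 libraries (left) and with 16 (right). The dashed line marks equal change. With 18 libraries most genes lie to the right of the line (medians 0.55 and 0.39), and with 16 most lie to the left (medians 0.20 and 0.36), with RPL22L1 at the top in both.

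For CGRP in deprived medium, the sign of the members' median change depended on deprived CGRP replicate 2. With all libraries 1 member fell and 0 rose, where 6.58% of all genes tested fell and 6.38% rose, and 77 of 83 members had a log2 value above 0 (median 0.14, against 0.01 over all genes). The median of other genes was 0.13 for transcripts of up to 600 bases and 0.15 for those over 600 and up to 1000 bases, and with an offset for transcript length the members' median was 0.03. At an unadjusted p under 0.05 the edgeR test gave 2 higher and 2 lower, and DESeq2 called 1 lower. When the 2 libraries that stand apart were left out, 50 members fell and 0 rose, where 16.6% of all genes fell and 12.1% rose, and the median was -0.14. Both remaining deprived CGRP libraries lay below all 3 deprived control libraries in 69 of 83 members and above them in 2, where 31.3% of all genes lay below and 24.4% above. Without deprived CGRP replicate 2 alone the median was also -0.14, with 2 members and 2726 of all genes called.

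RPL22L1 shows the pattern. With CGRP it had 59.4, 103 and 55.4 CPM in deprived cells, against 82.2, 81.5 and 80.8 CPM in deprived control cells. Replicates 1 and 3 were below every control and replicate 2 was above, and the log2 value was -0.17 ± 0.19 (adjusted p = 0.60) with all libraries and -0.50 ± 0.05 (adjusted p = 1.7e-09) without the 2. RPS27 had 294, 497 and 284 CPM in deprived CGRP cells, against 353, 357 and 342 CPM in deprived control cells, which gave 0.03 ± 0.18 with all libraries and -0.27 ± 0.06 (adjusted p = 0.0030) without the 2. RPS6 had 1494, 2345 and 1481 CPM in deprived CGRP cells, against 1688, 1668 and 1652 CPM in deprived control cells, which gave 0.09 ± 0.14 and -0.16 ± 0.04 (adjusted p = 0.0035 without the 2). RPL10 had 1564, 2316 and 1525 CPM in deprived CGRP cells, against 1619, 1612 and 1633 CPM in deprived control cells, and passed in neither fit (0.15 and -0.06). The order of replicate 2 above the controls and replicates 1 and 3 below them was the same in all 4 genes.

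The 1 member that fell with all libraries was RPL17, a large-subunit protein at the exit tunnel. It had 3.18, 3.12 and 2.57 CPM in deprived CGRP cells, against 4.81, 4.31 and 4.01 CPM in deprived control cells (log2 -0.57 ± 0.17, adjusted p = 0.037, and -0.60 without the 2). Here replicate 2 was not high. RPL17 was counted about 100 times per library (mean 101.2), 32.7% of its exon bases lie in other genes on the same strand, and with pseudogene rows added the change was -0.38 and did not pass (adjusted p = 0.11). Over 16 alternatives RPL17 kept the call in 9. Among others, it was lost when any of the 3 deprived control libraries or deprived CGRP replicate 1 was left out. It was also lost in a fit of the compared groups alone.

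With CGRP in 2-DG medium 3 members fell and 0 rose, where 6.89% of all genes tested fell and 5.31% rose, with a median of -0.24 and 2 of 83 log2 values above 0. RPL17 had 2.88, 2.51 and 2.47 CPM in 2-DG CGRP cells, against 3.63, 5.03 and 3.99 CPM in 2-DG control cells (log2 -0.68 ± 0.17, adjusted p = 0.014). RPL36A had 6.11, 6.76 and 6.48 CPM in 2-DG CGRP cells, against 7.44, 8.83 and 9.16 CPM in 2-DG control cells (log2 -0.39 ± 0.11, adjusted p = 0.029). The groups did not overlap in either gene, and both kept the call without the 2 libraries that stand apart. Over 16 alternatives RPL17 kept it in 12 and RPL36A in 8.

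That last fit, which leaves out 2-DG control replicate 2, called 17 members lower and 1 higher in 2-DG medium, where 16.1% of all genes fell and 12.3% rose, and the median moved to -0.05. Leaving out 2-DG CGRP replicate 2 or 3, or 2-DG control replicate 2, left 1 called, beside 1466, 1447 and 1788 of all genes. Leaving out 2-DG control replicate 1 gave 6, beside 1826 of all genes. In high glucose CGRP changed 0 members by edgeR (2 lower at an unadjusted p under 0.05) and 0 by DESeq2, where 2.04% of all genes tested rose and 2.29% fell, and the median was 0.01. With those 2 left out 1 rose and 2 fell, where 9.14% and 9.92% of all genes did. RPL36AL was the 1 that rose, at 0.13 (adjusted p = 0.0049), and RPL22L1 and RPL36A were those that fell, at -0.22 and -0.35 (adjusted p = 0.0019 and 0.0062).

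**Figure D4:**
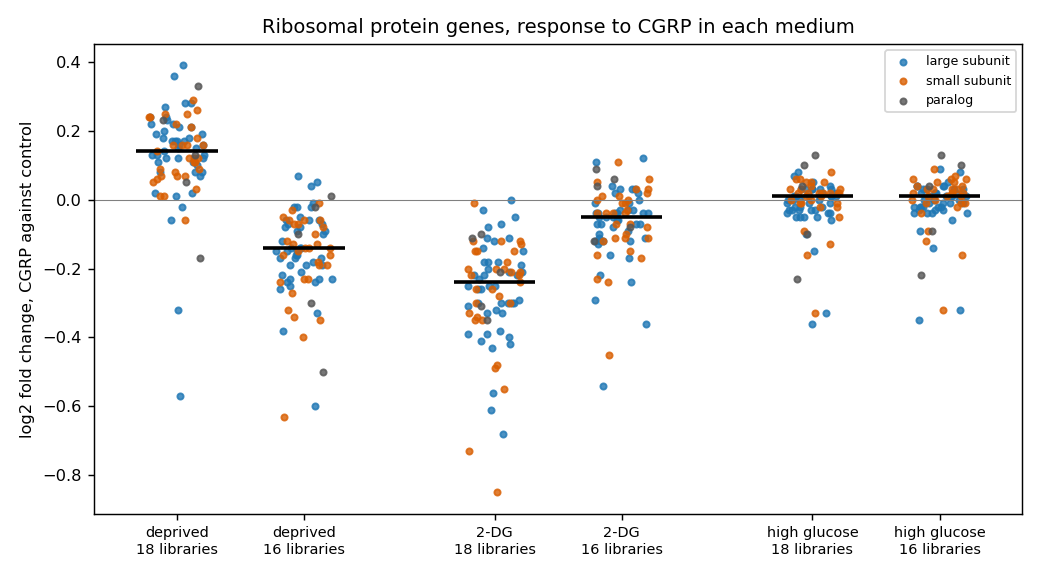
Log2 fold change of CGRP against control in deprived, 2-DG and high-glucose medium for 82 ribosomal protein genes (points; RPL3L not drawn), with all 18 libraries and with 16. Black lines are medians over the 83 tested genes. In deprived medium the median is 0.14 with 18 libraries and -0.14 with 16, and in high glucose it is 0.01 with both.

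Whether the peptide's effect differed between media was tested as an interaction. With all libraries 0 members passed for deprivation (edgeR, 0 at an unadjusted p under 0.05, and 0 by DESeq2), where 0.903% of all genes tested were higher and 0.65% lower, and the median difference was 0.14, or 0.04 with an offset for transcript length. Once the 2 libraries that stand apart were left out, 33 members passed, all lower, where 5.86% of all genes were higher and 7.67% lower, and the median was -0.14. For 2-DG 0 members passed with all libraries (1 lower at an unadjusted p under 0.05, and 0 by DESeq2), where 0.121% of all genes were higher and 0.27% lower. Without the 2, 2 members passed, both lower, where 2.32% and 3.59% of all genes did.

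2-DG without CGRP changed 0 of 83 members by edgeR, with 8 higher at an unadjusted p under 0.05 and 1 called higher by DESeq2, where 7.99% of all genes tested rose and 5.85% fell. In 37 members all 3 libraries lay above all 3 high-glucose control libraries and in 0 they lay below, against 18.2% and 15.7% of all genes. The median was 0.25 with all libraries and 0.04 without the 2 that stand apart, when 19 rose and 2 fell and 18.1% and 14.3% of all genes did. RPL3 had 1641, 1895 and 1630 CPM in 2-DG control cells, against 1409, 1416 and 1425 CPM in high-glucose control cells. The 2 groups did not overlap, and the log2 value was 0.28 ± 0.10 (adjusted p = 0.079), or 0.20 ± 0.03 (adjusted p = 4e-07) without the 2. RPL10 had 1072, 1464 and 1106 CPM in 2-DG control cells, against 906, 919 and 931 CPM in high-glucose control cells (log2 0.40 ± 0.13, adjusted p = 0.055, and 0.24 without the 2, adjusted p = 2.6e-08). RPL22L1, the strongest responder to deprivation, had 33.4, 53.1 and 37.2 CPM in 2-DG control cells, and at 0.14 ± 0.19 it did not pass (adjusted p = 0.70). Under CGRP, 2-DG changed 0 members (0 at an unadjusted p under 0.05, and 0 by DESeq2), where 1.52% of all genes tested rose and 0.87% fell. Without the 2, 7 rose and 9 fell, where 10.5% and 9.01% of all genes did.

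2-DG was also set directly against deprivation. In control medium 10 members fell and 2 rose, and both shares lay below those of all genes tested, of which 28.6% fell and 28.9% rose. The median was -0.15, or -0.06 with library totals as scaling. RPL22L1 had 33.4, 53.1 and 37.2 CPM in 2-DG control cells, against 82.2, 81.5 and 80.8 CPM in deprived control cells (log2 -0.98 ± 0.19, adjusted p = 0.00032). RPL10A, RPL28 and RPL13A fell by 0.57, 0.51 and 0.50 on the log2 scale (adjusted p = 0.0037, 0.015 and 0.015), while RPS10 (0.40, adjusted p = 0.038) and RPL3L rose. RPS10 again turned over with pseudogene rows added (-0.91), and RPL3L was counted 9, 7 and 7 times in 2-DG control libraries, against 0, 4 and 1 times in deprived control libraries. With the 2 libraries that stand apart left out 68 members fell and 4 rose, where 32.8% and 34% of all genes did, and the median was -0.34. Leaving out 2-DG control replicate 2 alone gave 25 called, while leaving out deprived control replicate 1 gave 6 and leaving out 2-DG control replicate 1 or 3 gave 5 or 6. The medians were then -0.34, -0.11, -0.03 and -0.07, and 10088, 9452, 9878 and 9724 of all genes were called.

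Members were also split by the TOP run, where the class without it rests on the listed starts only. Under deprivation without CGRP the median log2 change was 0.39 over the 47 members with the run (range -0.56 to 1.13) and 0.39 over the 19 tested members with an entry and without it (range -0.14 to 0.81). Without the 2 libraries that stand apart both medians were 0.36.

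Genes around the family were described from lists on ribosome making and TOP mRNAs. Of ribosomal proteins with other symbols, RACK1, a scaffold on the small subunit, rose by 0.61 on the log2 scale under deprivation without CGRP (adjusted p = 0.00035), while FAU had 0.52 and did not pass (adjusted p = 0.095). Of 17 tested elongation factors and other known TOP mRNAs, 12 rose and 0 fell (median 0.51, or 14 and 0 and a median of 0.48 without the 2 libraries that stand apart), with EEF2, the translocation factor, at 1.02 (adjusted p = 5.2e-11), PABPC1, the poly(A)-binding protein, at 0.74 (adjusted p = 6.7e-10) and EEF1A1, which delivers aminoacyl-tRNA, at 0.84. All 10 snoRNA host genes, many of whose spliced transcripts are TOP RNAs cleared by nonsense-mediated decay, rose in both fits (medians 1.47 and 1.44 without the 2), with SNHG1 at 1.94 and EPB41L4A-AS1 at 1.95 (adjusted p = 8.5e-10 and 7e-09). The share of all genes that rose was 31%, as above.

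Of 26 small-subunit assembly factors 18 rose and 1 fell (median log2 change 0.37), with RRP12, a 40S export factor, at 1.09 and PNO1, a factor of late 40S maturation, at 0.71. Of 31 large-subunit factors 18 rose and 2 fell (median 0.32), with NMD3, the 60S export adaptor, at 0.76 and MAK16 at 0.63. Of 27 subunits and factors of RNA polymerases I and III 18 rose and 2 fell (median 0.42), with POLR3C at 1.29 and POLR3E at 0.70. Of 9 nucleolar chaperones and snoRNP core proteins 4 rose and 0 fell, with DKC1, the pseudouridine synthase, at 0.69 and NPM1 at 0.68. Their median was 0.16, and 0.01 with library totals as scaling, so no direction is given for that list. Medians with library totals were 0.21, 0.16 and 0.27 for the small-subunit, large-subunit and polymerase lists. Without the 2 libraries that stand apart, 20 rose and 4 fell of the small-subunit factors, 21 and 3 of the large-subunit factors, 21 and 4 of the polymerase list and 7 and 2 of the nucleolar list. Every one of these named genes had an adjusted p of 2.1e-05 or lower (NPM1) by edgeR.

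The remaining lists were mixed. Of 12 dedicated chaperones of ribosomal proteins 6 rose and 3 fell (median 0.10), RRP12 again included, with HGH1 at 0.69. Of 22 genes of the mTORC1 branch 9 rose and 5 fell (median log2 change 0.06), with SESN2, a leucine sensor that restrains mTORC1, up by 2.77 and EIF4E, the cap-binding protein, at -0.57 (adjusted p = 1.3e-15 and 4.9e-07). Of 17 genes for ribosome stalling and turnover 6 rose and 3 fell (median 0.12), with GTPBP2, which in mouse helps to rescue stalled ribosomes, up by 1.75 and ZNF598, which marks collided ribosomes with ubiquitin, up by 1.01. Of 10 transcription regulators 4 rose and 4 fell (median -0.05), with E2F1 at -0.92 and MYC at 0.43. With library totals alone as scaling the medians of the chaperone, mTORC1 and stalling lists were -0.06, -0.09 and -0.04, so no direction is given for these lists. Without the 2 libraries, 6 rose and 5 fell of the chaperones, 10 and 8 of the mTORC1 branch, 9 and 3 of the stalling genes and 4 and 5 of the regulators.

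**Figure D5:**
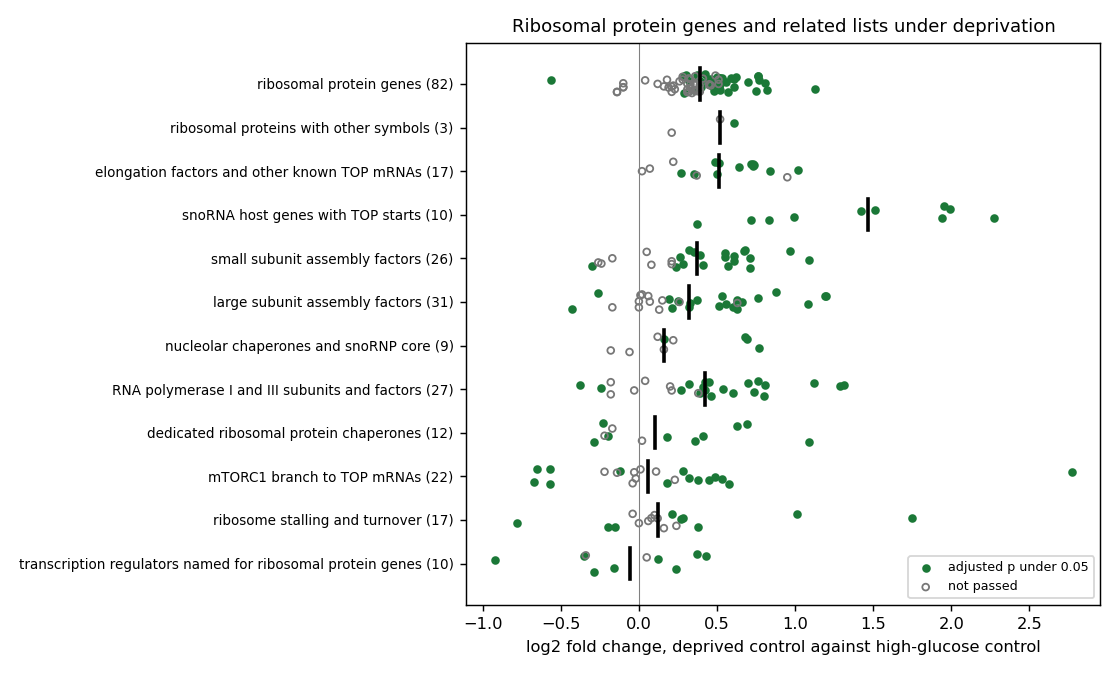
Log2 fold change of deprived control against high-glucose control cells (horizontal) for 82 ribosomal protein genes (RPL3L not drawn) and for each related list, with the number of genes drawn in brackets. Filled points have an adjusted p under 0.05, open points do not, and black lines are medians. The snoRNA host genes have the highest median (1.47), and the ribosomal protein genes lie around 0.39.

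Assembly factors were also followed under CGRP. In high glucose, deprived and 2-DG medium, 5, 9 and 16 of 26 small-subunit factors and 1, 10 and 16 of 31 large-subunit factors fell, with 0 that rose, while 0, 1 and 3 of 83 ribosomal protein genes fell. Of all genes tested 2.29%, 6.58% and 6.89% fell in the same order of media. Medians of the small-subunit factors were -0.17, -0.14 and -0.30, and they kept their sign under each scaling. MAK16 fell in all 3 media, by 0.30, 0.31 and 0.55 on the log2 scale (adjusted p = 0.0017, 0.00051 and 2.5e-06). MYC, a transcription activator of ribosome-making genes, fell by 0.90, 0.54 and 1.05 in the same order of media (adjusted p = 9.3e-08, 9.7e-06 and 8.2e-09). The list of 10 transcription regulators that holds MYC had medians of -0.02, -0.10 and 0.07. Of that list 1, 3 and 3 fell and 0, 0 and 1 rose. The part of MYC in the lower assembly factors was not tested. Without the 2 libraries that stand apart, 17, 24 and 20 of the small-subunit and 18, 25 and 23 of the large-subunit factors fell in these media, beside 2, 50 and 17 ribosomal protein genes, where 9.92%, 16.6% and 16.1% of all genes fell. No test of a difference between these lists was run.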

How the data were processed

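RNA of 18 Cal27 libraries was analysed from the authors' deposited table of raw counts per gene (whole numbers). Alignment with HISAT2 2.0.4 is named in the submitters' processing notes, which name both hg19 and GRCh38; no source used here gives the counter, its annotation or its strand setting. Gene names came from the gene name table (60370 of 60683 rows), and types, lengths and overlaps from GENCODE annotation.

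Counts were fitted with edgeR 4.0.16 (R 4.3.3) by its robust quasi-likelihood test, TMM scaling, filterByExpr (18159 genes kept) and 1 coefficient per group with 12 residual degrees of freedom. Adjusted p are Benjamini-Hochberg over all genes tested, with a threshold of 0.05. Totals were 28038260 to 32661768 counts per library. CPM were computed from these counts with TMM scaling. There were 8 pairwise comparisons and 2 interactions. The code was tested on simulated data.

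The members, lists and tests were chosen with earlier results of these data known. Named members were the 4 largest rises and falls per comparison that passed without overlap, plus a set of paralog pairs and well-known members; of each list the 2 smallest adjusted p. RPS29, EEF1A1 and FAU were added after their values were seen. Some genes that these rules name are counted but not reported here. Samples were not paired by replicate number in the main fit. Alternatives were DESeq2 1.42.0, other scalings and filters, a replicate block, the compared groups alone, each library left out and both outlying libraries left out. The outlying libraries were named with results of these data known. A length offset and summed pseudogenes were added after seeing the data.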

Additional observations from a re-analysis of the deposited data

How the results depend on the processing

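Without the 2 libraries that stand apart, the members called numbered 3 and 50 for CGRP in high glucose and deprived medium, 18 for CGRP in 2-DG medium, 78 for deprivation without CGRP, 21 and 16 for 2-DG without and under CGRP, 72 for 2-DG against deprivation, and 33 and 2 for the interactions with deprivation and 2-DG. The shares of all genes in this fit are given with each comparison above. Fitting only the groups compared gave 4, 0, 79, 30 and 10 for CGRP in high glucose, CGRP in deprived medium, deprivation without CGRP, deprivation under CGRP and 2-DG under CGRP. In the same order 3641, 131, 13546, 8798 and 2336 of 18159 genes were called. With a length offset, CGRP in deprived and 2-DG medium had 2 and 9 called, 2-DG without and under CGRP 13 and 2, and 2-DG against deprivation 28. In the same order 3421, 3558, 3921, 1159 and 11424 of 18159 genes were called. Library totals alone gave 24 for deprivation without CGRP, where 10945 of 18159 genes were called. No filter on low counts gave 21 for deprivation without CGRP and 37 under CGRP, where 10658 genes were called in each. The DESeq2 Wald test gave 5 for CGRP in 2-DG medium and 1 for 2-DG without CGRP, beside 2467 and 2761 of all genes. Summed pseudogenes gave 0 for CGRP in deprived medium, beside 2372 of all genes. The cause of these moves was not tested. RPS10 turned to 1.14 under deprivation without CGRP and to -0.91 for 2-DG against deprivation with pseudogenes summed, and RPL39L and RPL26L1 to -0.34 and -0.26 for deprivation under CGRP without deprived CGRP replicate 2.

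Leaving out 1 library in turn gave 0 to 1 members called for CGRP in high glucose, 0 to 2 in deprived and 1 to 6 in 2-DG medium, 22 to 27 for deprivation without and 36 to 69 under CGRP, 0 to 2 for 2-DG without and 0 for it under CGRP, 5 to 25 for 2-DG against deprivation, and 0 for both interactions. All genes called numbered 353 to 487, 1282 to 2726 and 1447 to 1826 for CGRP in these media. For deprivation they numbered 10064 to 10153 without and 10090 to 11781 under CGRP. For 2-DG they numbered 1593 to 2078 without and 157 to 197 under CGRP, and 9434 to 10088 against deprivation. For deprivation under CGRP, RPL39L then ranged over -0.34 to 0.18 and RPL26L1 over -0.26 to 0.11. Same-numbered samples deviated together in few cases: 6 of 45 correlations were over 0.1. Of these 6, 3 were the pairs of deprived CGRP with 2-DG control (0.37, 0.64 and 0.33, the 0.64 between the 2 libraries that stand apart). Deviations were taken from group means, which an outlying library moves, so these correlations cannot show whether the numbers pair the samples. The main fit did not pair them. With replicate number as a block, 52 members were called for deprivation without CGRP, 1 and 2 for CGRP in high glucose and deprived medium, 5 for CGRP in 2-DG medium and 1 for 2-DG without CGRP. In the same order 11113, 781, 2380, 2277 and 2573 of 18159 genes were called. Counts near 100 per library (RPL17) or below (RPS10, RPL3L) limit what can be said of those genes.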
